A study of Mus musculus with 14 samples.

Results

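The genes described here are the ligands, receptors, extracellular antagonists, latent TGF-beta binding proteins, Smads and Id targets of the BMP and TGF-beta superfamily, read in osteoblasts and endothelial cells sorted from mouse bone marrow. They were taken by symbol, whatever their signal, which gave 59 of the 18193 gene symbols on the array. The rule used no measured value except to choose, for each gene, its brightest probe set by mean over all arrays. By role they were 22 ligands, 14 receptors, 6 antagonists or extracellular modulators, 4 latent TGF-beta binding proteins, 8 Smads, 4 Id genes and Bmp2k, a kinase caught by its name alone. Of these, 48 passed the filter on low signal and were tested among 12830 genes. The other 11 (Bmp8b, Bmp10, Bmp15, Gdf3, Gdf5, Inhbc, Inhbe, Acvr1c, Bmpr1b, Nog and Smad9) lay below the filter and were left out of the main tests. Their intensities ran from 2.8 (Bmp8b) to 134 (Gdf3).

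Ligands of this superfamily are secreted dimers that bring together type I and type II receptor kinases, which phosphorylate Smad1, Smad5 and Smad9 (mostly BMPs and, in endothelium, ALK1, the product of Acvrl1) or Smad2 and Smad3 (TGF-beta and activin). The receptor-activated Smads enter the nucleus with Smad4, while Smad6, Smad7 and the decoy receptor Bambi dampen the signal. Bone matrix stores TGF-beta as a latent complex, BMPs were named for their power to induce bone, and Acvrl1 and Eng are needed for normal vessels.

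All mice were C57BL/6J, 6 to 8 weeks of age, wild type per the labels, and carried pOBcol2.3-GFP, a transgene whose GFP is under part of the promoter of type I collagen and marks osteoblasts. Stromal cells freed from bone marrow by collagenase were sorted into a GFP+ osteoblast population without CD45, ter119 or CD31 and a CD31+ endothelial population without CD45, ter119 or GFP. Untreated mice, on vehicle per the protocol text, gave 3 osteoblast and 4 endothelial arrays, and mice given 250 ug per kg of G-CSF under the skin gave 3 and 4 (5 days by the titles, although the protocol text of the untreated arrays says 7). G-CSF is the cytokine that drives neutrophil production and mobilises blood stem cells. The labels do not say whether replicates were separate animals, so p-values measure the spread between these samples, which may be technical. In sorted bulk RNA, fewer cells of a type and less RNA per cell cannot be told apart.

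The markers of the endothelial sort ran as labelled. All 12 endothelial markers were lower in osteoblasts, and the mean log2 signal of the list ran from 12.57 to 13.09 in endothelial and from 8.47 to 9.51 in osteoblast arrays. The osteoblast markers separated the sorts less well. Their 8-gene mean was 11.74 to 13.86 in untreated osteoblasts and 10.85 to 12.21 in untreated endothelial arrays, and only Alpl and Mepe were called between them. After G-CSF it was 13.10 to 13.64 against 8.83 to 11.49, with all 8 called. Untreated osteoblast replicate 2 stood apart from its group, with the neutrophil list at 13.77 against 11.05 and 10.65 and the osteoblast list at 11.74 against 13.67 and 13.86, and so did untreated endothelial replicate 1, with the skeletal muscle list at 13.48 against 7.77 to 9.39. The muscle list also differed between the sorts, at 6.20 to 6.97 on untreated osteoblast arrays, with 7 of 10 genes called lower (70%). After G-CSF it was 5.95 to 6.69 in osteoblast and 6.98 to 8.45 in endothelial arrays, with 2 of 10 called lower (20%). Of all genes, 13.3% and 15.1% were called lower. Untreated, the pericyte list lay at 11.74 to 12.58 on endothelial and 10.71 to 11.15 on osteoblast arrays. Of its 8 genes, 3 were called lower and 1 higher in osteoblasts. After G-CSF 1 was lower and 2 higher, with overlapping groups. In both conditions 2 of 6 megakaryocyte genes were called lower. The chondrocyte list ran from 7.75 to 11.52 on untreated and 7.37 to 11.04 on G-CSF endothelial arrays. In osteoblasts 1 (untreated) and 4 (G-CSF) of its 9 genes were called higher. The actin ratio of 3 prime to 5 prime signal, which is read for RNA quality, lay between 2.62 and 11.03. It was highest on osteoblast replicate 3, untreated (11.03) and after G-CSF (10.49), and at most 6.57 on endothelial arrays. The same ratio for Gapdh lay between 5.88 (osteoblast G-CSF replicate 1) and 20.92 (untreated endothelial replicate 1). The part of these differences in the results below was not tested, except where values without an array are given.

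**Figure D1:**
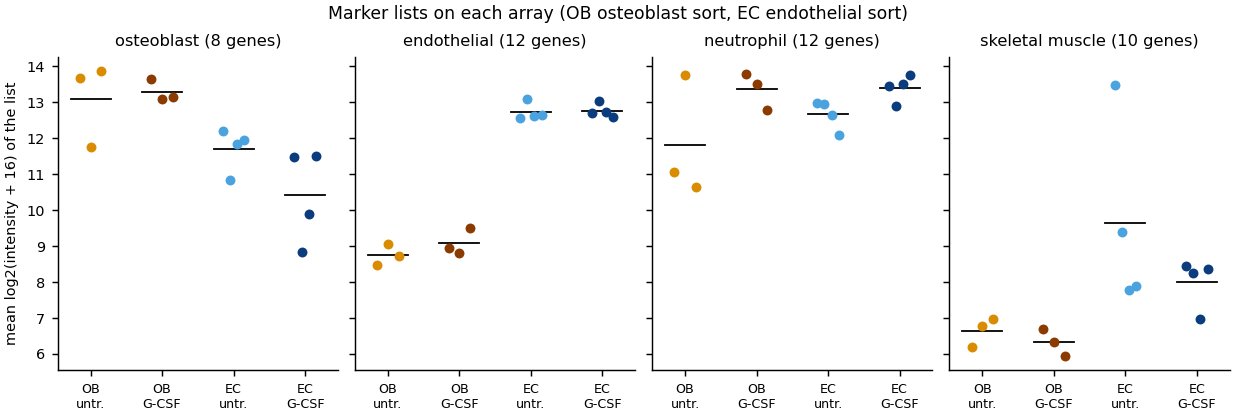
Each point is the mean log2(intensity + 16) of a marker list on 1 array, and lines are group means. The endothelial list separates the sorts, and the osteoblast list is at 8.83 on 1 endothelial G-CSF array. Within their own groups, single untreated arrays stand out for neutrophil (13.77, osteoblast) and muscle (13.48, endothelial) genes. The muscle list is lower on osteoblast than on endothelial arrays in both conditions.

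Untreated osteoblasts and endothelial cells differed in which genes of the pathway were high. Osteoblasts had more of 6 ligands, of 4 antagonists or modulators and of Bmpr1a, Ltbp2, Ltbp3, Smad6 and Id4, while endothelial cells had more of 4 receptors and of Bmp6, Inhbb, Ltbp4, Smad1 and Id1. In all, 24 of the 48 tested genes were called in limma (adjusted p under 0.05), 15 higher in osteoblasts and 9 lower, which is 50% against 27.4% of all tested genes. The share of all genes called higher was 14.1%, and lower 13.3%. The groups did not overlap for 28 of the 48 genes, 58.3% against 33.4% of all genes, and 31 had an unadjusted p under 0.05 against 37.5% of all genes. The median log2 difference, osteoblast minus endothelial, was 0.37 for the 48 genes and -0.01 for all genes, and the median size of the difference was 1.00 against 0.45. Levels are given as intensity, the brightness of a gene's probe set, in replicate order, and values in parentheses are log2 differences ± SE with limma's adjusted p.

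Among the ligands, Gdf10 (a relative of BMP3) differed most. Its intensity was 9888, 7106 and 8150.0 in the untreated osteoblast arrays and 625, 549, 1139.8 and 894 in the endothelial ones. Every osteoblast array lay above every endothelial array, and the fold was 10.6 (log2 3.40 ± 0.49, adjusted p = 0.00011). Bmp5, a BMP of skeletal patterning, was 6.48-fold higher, at 4109.6, 2561 and 5790.2 against 711, 377, 569 and 812 (log2 2.70 ± 0.32, adjusted p = 1.96e-05). These groups did not overlap, and both further Bmp5 probe sets differed the same way.

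Inhba encodes the subunit of activin A. Its osteoblast arrays were close together at 603, 619 and 634, far above the endothelial 112, 83.2, 47.3 and 102 (log2 2.68 ± 0.35, adjusted p = 4.46e-05). Tgfb3 and Tgfb2, which encode TGF-beta isoforms, were 4.54-fold and 3.17-fold higher, Tgfb3 at 2269, 1680.1 and 2665 against 677, 396, 387 and 447 (log2 2.18 ± 0.29, adjusted p = 5.33e-05) and Tgfb2 with log2 1.66 ± 0.36, adjusted p = 0.00281. Neither gene's groups overlapped. Tgfb1, the isoform most abundant in bone matrix, was not called: osteoblast arrays read 316, 678 and 594 and endothelial arrays 323, 654, 448 and 382, with overlap. Bmp8a was 4.83-fold higher, at 1954, 334 and 1316 against 299, 38.9, 261 and 326. Its arrays were widely spread, and the lowest osteoblast value was just above the highest endothelial one (log2 2.27 ± 0.74, adjusted p = 0.0326).

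Bmp6 and Inhbb were the ligands with more signal in endothelial cells. Bmp6, which sinusoidal endothelium of the liver makes to control iron uptake, read 1493, 905 and 1111 in osteoblasts and 3874, 6170.2, 4592 and 4158 in endothelial cells. The groups lay well apart, 3.99-fold lower in osteoblasts (adjusted p = 9.79e-05). Inhbb, the activin B subunit, was 2.63-fold lower (log2 -1.39 ± 0.37, adjusted p = 0.0112), but a second, dimmer probe set for it showed no such difference (-0.04, and 0.24 between the G-CSF sorts). The other 7 tested ligands were not called, among them the bone-inducing Bmp2, Bmp4 and Bmp7. Bmp2 read 1384, 484 and 1569.9 in osteoblasts and 563, 458, 532 and 823 in endothelial cells, with only osteoblast replicate 2 inside the endothelial range.

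**Figure D2:**
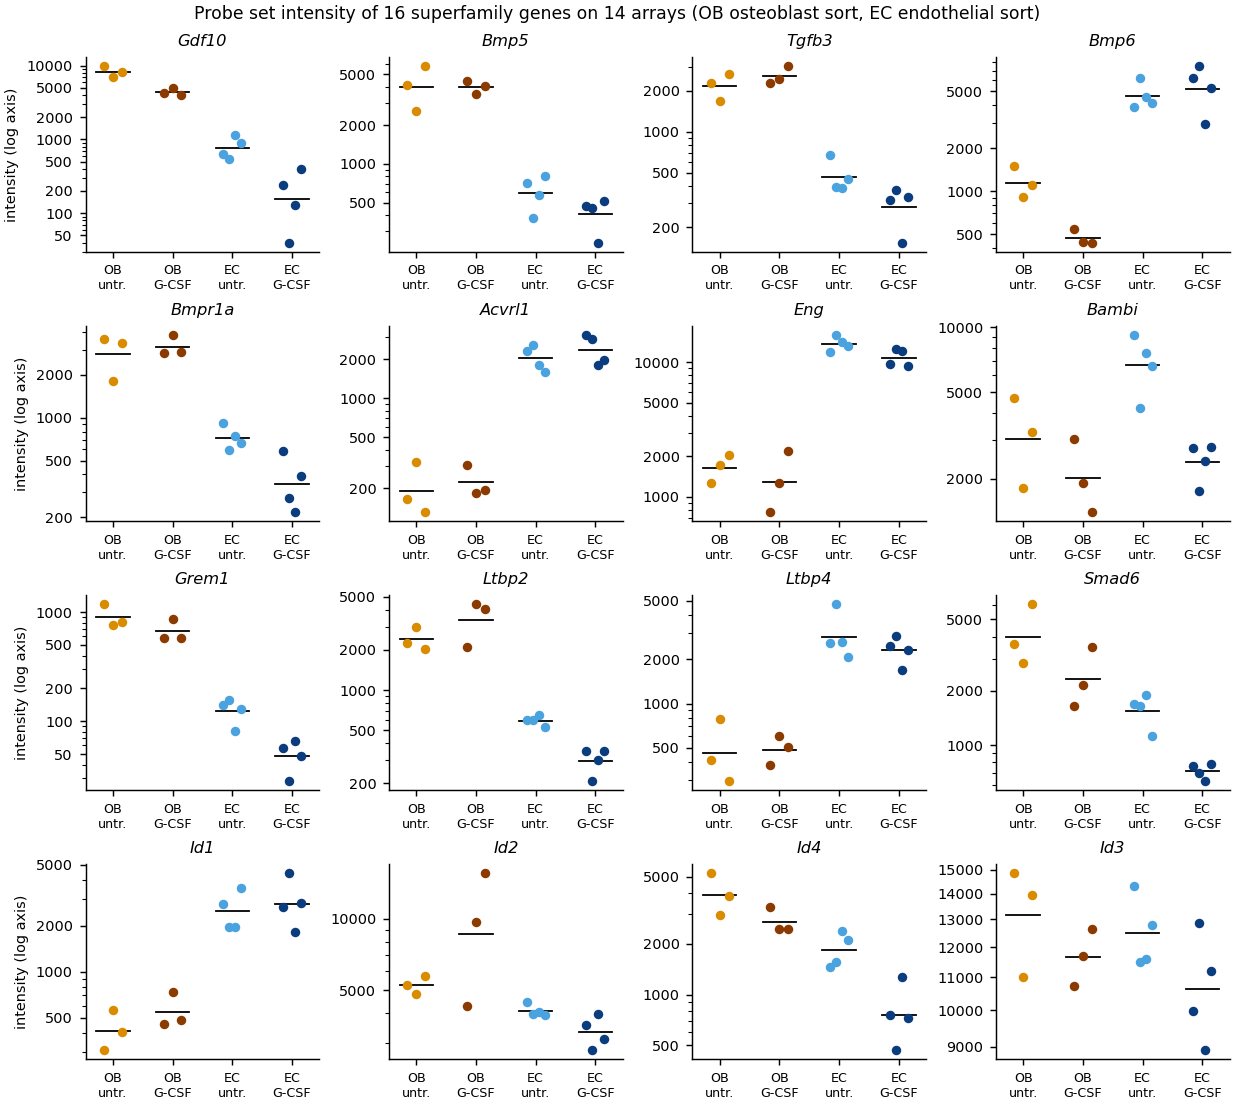
Intensity (log axis) of 16 genes on each of 14 arrays, with lines at the group means of log2(intensity + 16). Gdf10, Bmp5, Tgfb3, Bmpr1a, Grem1 and Ltbp2 are high in the osteoblast sort (OB), whereas Bmp6, Acvrl1, Eng, Ltbp4 and Id1 are high in the endothelial sort (EC).

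Of 12 tested receptors, 1 was called higher in osteoblasts, 4 lower and 7 were not called. Acvrl1, the ALK1 receptor of endothelium, read 165, 319 and 132 in osteoblasts and 2339.7, 2588, 1809 and 1608 in endothelial cells. The lowest endothelial value was several times the highest osteoblast value, a difference of 9.96-fold (log2 -3.32 ± 0.30, adjusted p = 1.68e-06). A second Acvrl1 probe set gave a smaller difference in the same direction (-1.49). Endoglin, the coreceptor encoded by Eng, read 1261, 1709.5 and 2059.9 against 11946, 15939.6, 14229.8 and 13282 and was 8.31-fold lower in osteoblasts (log2 -3.05 ± 0.28, adjusted p = 1.87e-06).

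Acvr2b, a type II activin receptor, was 2.02-fold lower (log2 -1.01 ± 0.30, adjusted p = 0.0225), while a second, dimmer probe set for it showed a smaller difference (-0.23). Bambi, a receptor without a kinase that dampens the signal, was 2.19-fold lower, at 4709, 1809 and 3289.8 against 9212, 4249.6, 7588 and 6636. Here the groups overlapped, since osteoblast replicate 1 exceeded endothelial replicate 2 (log2 -1.13 ± 0.34, adjusted p = 0.0236). Bmpr1a, the widely used type I BMP receptor, was the receptor with more signal in osteoblasts, at 3550.5, 1812 and 3358 against 912, 595, 744 and 662 and without overlap (3.81-fold, log2 1.93 ± 0.31, adjusted p = 0.000288). Its further probe sets above the filter gave 1.83, 1.82, 0.80 and 0.45, and those at 0.80 and 0.45 were not called by limma over all probe sets. The TGF-beta receptors Tgfbr1, Tgfbr2 and Tgfbr3, and Bmpr2, Acvr1, Acvr1b and Acvr2a, were not called. Bmpr2, the type II receptor that pairs with ALK1 or with Bmpr1a, differed by 0.05 ± 0.22 on the log2 scale. For Acvr2a a second probe set was lower in osteoblasts (-1.30) while the one chosen was not called (-0.28 ± 0.28).

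All 5 tested antagonists and modulators had every untreated osteoblast array above every endothelial array, and 4 were called. Gremlin 1, a secreted trap for BMPs, read 1185, 768 and 805 against 140.4, 156, 82.2 and 131, 6.54-fold higher in osteoblasts (log2 2.71 ± 0.28, adjusted p = 5.43e-06). Follistatin, which binds activin and is encoded by Fst, read 2412, 1516 and 1273 against 398, 291, 282 and 252, 5.31-fold higher (log2 2.41 ± 0.24, adjusted p = 3.9e-06). Osteoblasts thus had more signal from both the activin A subunit gene and its binding protein. Bmp1, a protease that trims procollagen and cleaves chordin, was 3.65-fold higher (log2 1.87 ± 0.32, adjusted p = 0.000446), and the follistatin-like glycoprotein gene Fstl1 2.06-fold (log2 1.04 ± 0.22, adjusted p = 0.00297). Chordin, the BMP trap encoded by Chrd, was not called (log2 0.67 ± 0.30, adjusted p = 0.12).

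The latent TGF-beta binding proteins, which tie latent TGF-beta to the matrix, split between the sorts. Ltbp2 was 3.98-fold higher in osteoblasts, at 2268, 2987 and 2034 against 591, 598, 647 and 532 (log2 1.99 ± 0.26, adjusted p = 4.81e-05), and Ltbp3 2.44-fold higher (log2 1.29 ± 0.32, adjusted p = 0.00806). Ltbp4 was 6.04-fold lower, at 411, 788 and 297 against 2586, 4747, 2621 and 2059.5 (log2 -2.59 ± 0.33, adjusted p = 3.78e-05). None of these 3 genes had overlapping groups, and Ltbp1 was not called (log2 0.89 ± 0.34, adjusted p = 0.0621).

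Of 7 tested Smads, the inhibitory Smad6 was 2.55-fold higher in osteoblasts, at 3641, 2854 and 6079 against 1681, 1644, 1889.5 and 1118 (log2 1.35 ± 0.28, adjusted p = 0.0025). Smad1, which carries the BMP signal, was 2.75-fold lower, at 4048, 1599 and 4555 against 8303, 5852, 8656 and 12647 (log2 -1.46 ± 0.35, adjusted p = 0.00629). Neither gene's groups overlapped. Smad2, Smad3, Smad4, Smad5 and Smad7 were not called, and Smad4 and Smad7 differed by -0.05 ± 0.23 and 0.12 ± 0.29.

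The Id genes encode inhibitors of basic helix-loop-helix factors and are rapid BMP targets, but the 4 did not share a pattern. Id1 read 307, 562 and 403 in osteoblasts and 2753, 1957, 1974 and 3544 in endothelial cells, 5.83-fold lower without overlap (log2 -2.54 ± 0.31, adjusted p = 2.52e-05). Id4 was 2.13-fold higher, at 5276, 2976 and 3858 against 1448, 1554, 2384 and 2109, also without overlap (log2 1.09 ± 0.30, adjusted p = 0.0133). Id3 had overlapping groups, at 14855, 11018 and 13962 against 14308, 11480.5, 11583 and 12786 (log2 0.08 ± 0.17, adjusted p = 0.79), and Id2 was not called (log2 0.36 ± 0.31, adjusted p = 0.423).

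The promoters of Id2, Id3, Id4 and Smad6, which are direct Smad targets, are shown from RefSeq (GRCm38.p6), 250 bases before to 10 after the start. Capitals mark, on either strand, GGCGCC (a GC-rich element bound by BMP Smads), CAGAC (the core bound by Smad3 and Smad4) or GTCTAGAC (the palindrome holding the GTCT Smad box). No window holds more than 1 kind of motif, so no capitals overlap. The windows are Id2 at chr12:25096083-25096342 (minus strand), Id3 at chr4:136143572-136143831 (plus strand), Id4 at chr13:48260866-48261125 (plus strand) and Smad6 at chr9:64022050-64022309 (minus strand).
Id2: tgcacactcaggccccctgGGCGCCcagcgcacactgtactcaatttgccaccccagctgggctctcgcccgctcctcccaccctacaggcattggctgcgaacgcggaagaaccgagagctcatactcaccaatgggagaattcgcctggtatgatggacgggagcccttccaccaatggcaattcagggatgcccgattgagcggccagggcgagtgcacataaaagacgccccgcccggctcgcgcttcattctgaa
Id3: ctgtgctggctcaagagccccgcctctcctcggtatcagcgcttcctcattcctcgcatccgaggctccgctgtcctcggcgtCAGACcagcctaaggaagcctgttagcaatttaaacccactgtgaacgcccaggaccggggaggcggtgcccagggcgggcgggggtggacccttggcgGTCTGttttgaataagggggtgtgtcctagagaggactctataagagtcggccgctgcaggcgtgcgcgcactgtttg
Id4: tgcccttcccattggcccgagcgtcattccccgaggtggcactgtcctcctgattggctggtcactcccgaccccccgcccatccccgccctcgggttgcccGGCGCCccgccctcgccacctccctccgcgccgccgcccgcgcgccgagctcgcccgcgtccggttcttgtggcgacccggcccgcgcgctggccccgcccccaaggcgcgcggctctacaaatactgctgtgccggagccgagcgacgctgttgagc
Smad6: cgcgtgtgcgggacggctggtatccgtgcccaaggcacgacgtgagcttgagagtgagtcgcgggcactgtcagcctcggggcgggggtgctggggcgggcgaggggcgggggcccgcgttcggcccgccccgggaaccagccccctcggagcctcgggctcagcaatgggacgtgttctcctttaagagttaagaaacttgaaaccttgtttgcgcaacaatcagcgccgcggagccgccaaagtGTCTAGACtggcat
GGCGCC occurs in the Id2 and Id4 windows, at -231 and -148 counted from the start, CAGAC occurs at -167 and -68 in Id3, and the Smad6 palindrome begins at -4 and crosses the start. Promoters were found for 43 of the 59 genes, in 52 windows. GGCGCC was in 12 of the 52 (23.1%) and in 9.96% of all 32851 windows of that length, CAGAC in 22 (42.3%) and 44.0%, and GTCTAGAC in 1 (1.92%) and 0.177%. A match describes letters only, and no binding was measured.

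Of the libraries that stood apart, leaving out both untreated arrays gave 27 calls (19 higher, 8 lower), 23 of them shared with the 24 above, with Bambi lost and Acvr1, Bmp2, Ltbp1 and Tgfbr1 gained. Osteoblast replicates 2 and 3 were deposited with more decimals than all other arrays, and with that as a batch term 22 genes were called, 19 of them shared, while Acvr2b, Bambi, Inhbb, Ltbp3 and Smad1 were lost. Osteoblast replicate 1, the sole osteoblast array printed like the endothelial ones, gave 25 calls on its own, 21 of them shared. A lone array has no spread and is assumed to vary like the other groups, so this count adds no support of its own. Leaving out single arrays lost 4 genes: Acvr2b (without osteoblast 2 or 3 or endothelial 2 or 4, adjusted p = 0.0525 to 0.0883), Bambi (osteoblast 2 or 3 or endothelial 1 or 3, 0.0512 to 0.0909), Bmp8a (osteoblast 1 or 3 or endothelial 2, 0.0924 to 0.151) and Id4 (osteoblast 1, 0.0757). Centring each array on its median moved the median of all genes to -0.24 and the calls from 15 higher and 9 lower to 15 and 12 (1807 and 1712 of all genes to 1225 and 2573).

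After G-CSF the sorts were compared on 7 further arrays that share none with the untreated comparison. Same-numbered untreated and G-CSF arrays deviated together from their group means, so the 2 comparisons are not independent. Gdf10, Bmp8a, Ltbp2 and Grem1 were again high in osteoblasts, and Bmp6, Acvrl1 and Eng in endothelial cells. In limma 30 of the 48 genes were called, 21 higher in osteoblasts and 9 lower, 62.5% against 33% of all genes, or 17.9% higher and 15.1% lower. The groups did not overlap for 31 genes, 64.6% against 40.3%, and 33 had an unadjusted p under 0.05 against 42.2% of all genes. Both comparisons called 23 genes, 95.8% of the untreated and 76.7% of the G-CSF calls, all in the same direction. Over all genes both called 2863, 81.4% of the untreated and 67.6% of the G-CSF calls, and 2862 of these had the same direction. Of the 48 genes, 17 were called in neither.

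**Figure D3:**
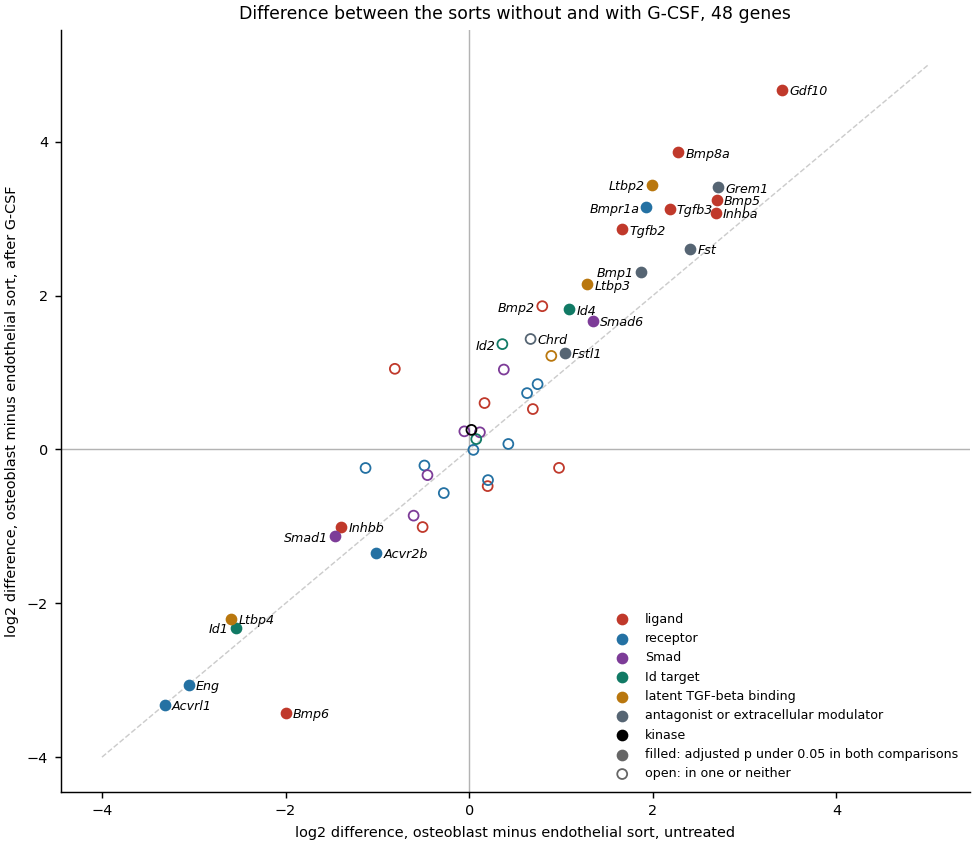
Each point is 1 of 48 genes, with its log2 difference between the sorts in untreated mice (x axis) and after G-CSF (y axis); filled points were called in both, and the dashed line marks equal differences. Gdf10 is at 3.40 and 4.67, and Acvrl1 at -3.32 in both.

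Gdf10 again differed most. It read 4203, 4959 and 3973 in osteoblasts and 241, 39.5, 130.3 and 399 in endothelial cells, 25.5-fold apart (log2 4.67 ± 0.49, adjusted p = 4.23e-06). Bmp8a was 14.6-fold higher (log2 3.87 ± 0.74, adjusted p = 0.000922), at 1574, 1195 and 1039 against 152, 9, 73.7 and 135. Neither pair of groups overlapped. Ltbp2 read 2100.5, 4428 and 4090.3 against 346, 207, 297 and 351, 10.9-fold higher (log2 3.44 ± 0.26, adjusted p = 2.13e-07), and Grem1 580.3, 869.6 and 580.2 against 56.4, 28.3, 65.7 and 48.5, 10.6-fold (log2 3.41 ± 0.28, adjusted p = 4.41e-07). Bmpr1a was 8.86-fold (log2 3.15 ± 0.31, adjusted p = 2.4e-06) and Tgfb2 7.27-fold higher (log2 2.86 ± 0.36, adjusted p = 2.22e-05). Whether G-CSF widened any gap is the difference of changes tested further on, which called 0 genes.

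Called higher in osteoblasts only among the G-CSF arrays were Bmp2 (log2 1.86 ± 0.41, adjusted p = 0.0028), Chrd (log2 1.44 ± 0.30, adjusted p = 0.00198), Id2 (log2 1.37 ± 0.31, adjusted p = 0.00298), Ltbp1 (log2 1.22 ± 0.34, adjusted p = 0.0117), Smad3 (log2 1.04 ± 0.31, adjusted p = 0.0182) and Acvr1 (log2 0.85 ± 0.27, adjusted p = 0.0255). Smad5 was called lower (log2 -0.86 ± 0.27, adjusted p = 0.0254), and Bambi was no longer called (log2 -0.24 ± 0.34, adjusted p = 0.642). Id2 read 4296, 9674 and 15545 in osteoblasts and 3564, 2799.6, 3971 and 3131 in endothelial cells. Its osteoblast arrays were widely spread, replicate 1 lying just above the endothelial arrays. The third Id2 probe set above the filter showed a smaller difference (0.18). So did further probe sets above the filter for Acvr1 (0.28 and 0.36), Smad3 (0.54) and Smad5 (-0.75 and -0.14).

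Acvrl1 and Eng kept their endothelial excess, at 10-fold (log2 -3.32 ± 0.30, adjusted p = 1.14e-06) and 8.34-fold (log2 -3.06 ± 0.28, adjusted p = 1.31e-06), as did Id1 (4.99-fold, log2 -2.32 ± 0.31, adjusted p = 4.1e-05) and Ltbp4 (4.6-fold, log2 -2.20 ± 0.33, adjusted p = 0.000119). Bmp6 was 10.7-fold lower in osteoblasts, at 545, 441 and 434 against 6165, 7545, 2971 and 5287 (log2 -3.42 ± 0.28, adjusted p = 4.82e-07). The part of the osteoblast marker list, given above for each group, in these differences was not tested. With printed decimals as a batch term 27 genes were called, 24 of them shared, and Acvr1, Acvr2b, Id2, Inhbb, Smad1 and Smad5 were lost. Osteoblast replicate 1 on its own, with the same limit as in untreated mice, gave 26 calls, 24 of them shared. Leaving out single arrays lost 6 genes: Inhbb and Smad1 (without osteoblast 2 or 3 or endothelial 2 or 3, adjusted p up to 0.207 and 0.104), Smad5 (osteoblast 2 or 3 or endothelial 3, up to 0.0824), Acvr1 (osteoblast 3 or endothelial 4, up to 0.119), Smad3 (osteoblast 1 or endothelial 2, up to 0.0994) and Ltbp1 (osteoblast 1, 0.0549). Centring on the median moved the median of all genes from 0.01 to -0.38 and the calls from 21 higher and 9 lower to 18 and 15 (2296 and 1937 of all genes to 1418 and 3958), and Acvr1, Ltbp1 and Smad3 were lost.

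In osteoblasts no gene of the superfamily was called after G-CSF. Limma called 26 of all 12830 genes (0.203%, with 0.164% higher and 0.039% lower), and at an unadjusted p under 0.05 it counted 6 of the 48 genes and 1143 of all (8.91%). The groups did not overlap for 6 genes, 2 higher and 4 lower, 12.5% against 9.21% of all genes (3.55% higher and 5.67% lower). The median log2 change was 0.02 for the 48 genes and -0.04 for all.

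Bmp6 came nearest. It read 1493, 905 and 1111 in untreated and 545, 441 and 434 in G-CSF osteoblasts, so that all 3 G-CSF arrays were below all 3 untreated arrays, by log2 -1.25 ± 0.30, adjusted p = 0.135. The same gene in endothelial cells read 3874, 6170.2, 4592 and 4158 and 6165, 7545, 2971 and 5287, with overlap (log2 0.17 ± 0.26, adjusted p = 0.884). With both untreated arrays that stood apart left out, Bmp6 was called in osteoblasts (-1.42, adjusted p = 0.0289), and with the replicate number as a block its adjusted p was 0.0552. With osteoblast replicates 2 and 3 alone it was -1.17 (adjusted p = 0.479).

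The activin subunit genes read higher in every G-CSF osteoblast array than in any untreated one. Inhba went from 603, 619 and 634 to 1524, 1009 and 1237 (log2 0.98 ± 0.37, adjusted p = 0.399). Inhbb went from 587, 394 and 609 to 1463, 755 and 1341 (log2 1.11 ± 0.40, adjusted p = 0.368). Neither passed the test after adjustment, and a second, dimmer Inhbb probe set showed a change of 0.05. Gdf10 (log2 -0.93 ± 0.52, adjusted p = 0.661), Gdf2 (log2 -1.12 ± 0.60, adjusted p = 0.643) and Acvr2a (log2 -0.66 ± 0.30, adjusted p = 0.55) had all G-CSF arrays below the untreated ones and were not called either. Gdf10 read 9888, 7106 and 8150.0 untreated and 4203, 4959 and 3973 after G-CSF. The neutrophil list read 11.05, 13.77 and 10.65 untreated and 12.78 to 13.78 after G-CSF. The adipogenic reticular stroma list lay at 11.23 to 12.12 untreated and 10.64 to 10.93 after G-CSF, without overlap. Of its 9 genes, 1 was called lower (11.1%, against 0.039% of all genes). The erythroid list lay at 9.10 to 11.87 untreated and 6.78 to 8.54 after G-CSF, with no overlap and 0 of 4 genes called, and the B lineage list at 6.53 to 9.62 and 6.23 to 6.91. The part of any of these lists in the values above was not tested.

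**Figure D4:**
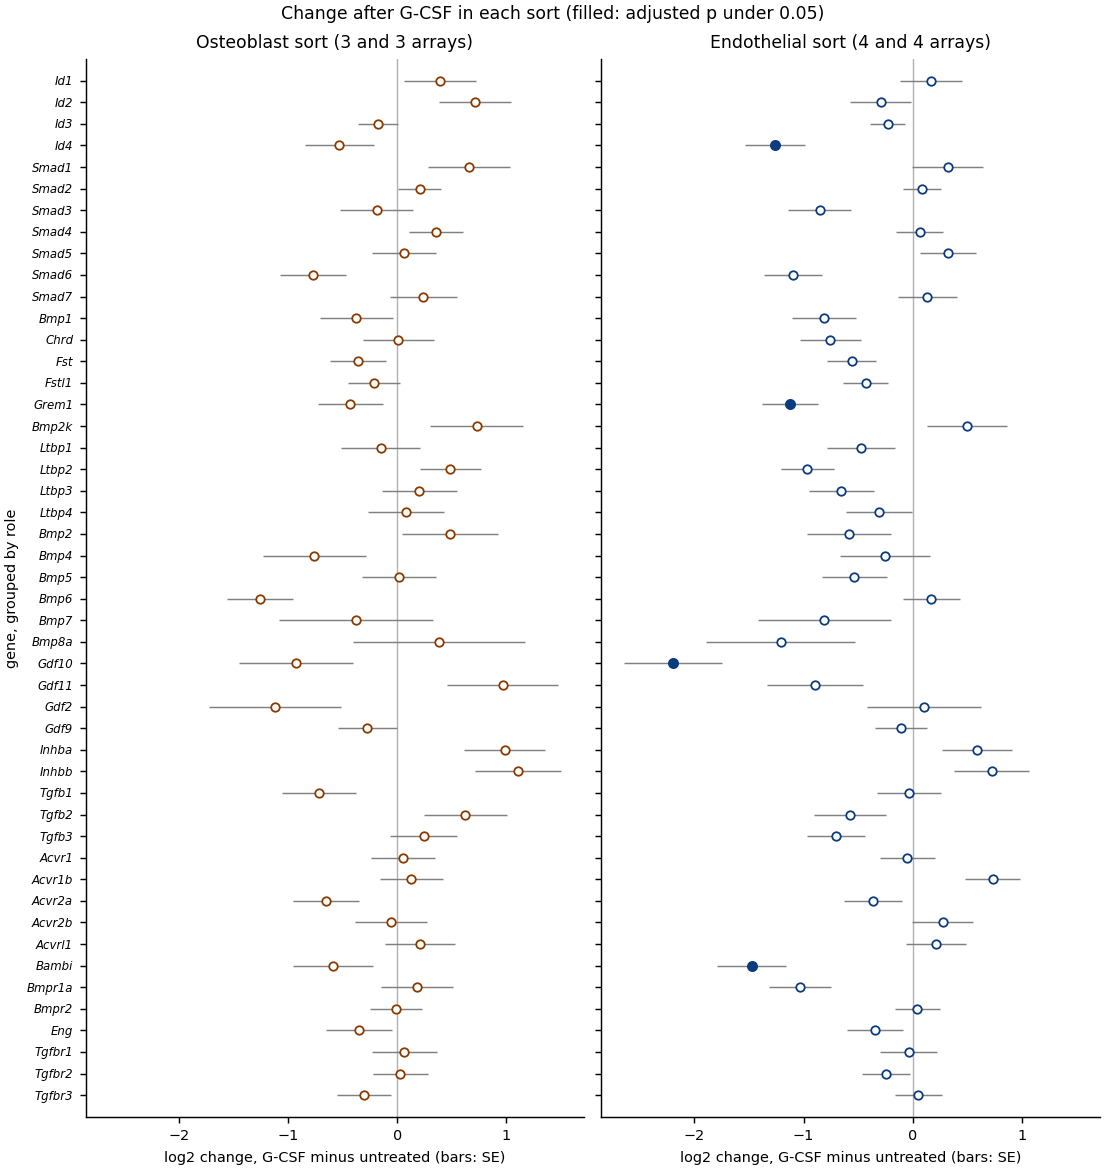
Log2 change after G-CSF with its SE (bars) for 48 genes, grouped by role, in the osteoblast sort (left) and the endothelial sort (right). Filled points passed an adjusted p of 0.05: none on the left, and Gdf10, Bambi, Id4 and Grem1, all lower, on the right.

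In endothelial cells 4 of the 48 genes fell after G-CSF and none rose: Gdf10, Bambi, Id4 and Grem1. That is 8.33% against 1.68% of all genes, of which 1.19% were called lower and 0.483% higher. At an unadjusted p under 0.05 limma counted 14 of the 48, against 13.4% of all genes. The groups did not overlap for 12 genes, 10 of them lower and 2 higher, 25% against 10.6% of all genes (5.73% lower and 4.86% higher). The median log2 change was -0.30 for the 48 genes and -0.05 for all.

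Gdf10 fell 4.58-fold, from 625, 549, 1139.8 and 894 to 241, 39.5, 130.3 and 399. No G-CSF array reached the lowest untreated array, and replicate 2 was the dimmest (log2 -2.20 ± 0.45, adjusted p = 0.0298). Bambi fell 2.79-fold, from 9212, 4249.6, 7588 and 6636 to 2761, 1743, 2400.5 and 2787, again without overlap (log2 -1.48 ± 0.32, adjusted p = 0.0357). Its G-CSF values lay within the range of the osteoblast arrays, 1401 to 4709. Id4 fell 2.4-fold, from 1448, 1554, 2384 and 2109 to 760.0, 467, 1270.4 and 723, without overlap (log2 -1.26 ± 0.28, adjusted p = 0.0389). Further Id4 probe sets showed smaller changes (-0.68 and -0.97), which limma over all probe sets did not call. Grem1 fell 2.19-fold, from 140.4, 156, 82.2 and 131 to 56.4, 28.3, 65.7 and 48.5, also without overlap and at low signal (log2 -1.13 ± 0.26, adjusted p = 0.0404).

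Of these 4, Gdf10, Id4 and Grem1 were higher in untreated osteoblasts, and Bambi was higher in untreated endothelial cells. The osteoblast marker list read 12.21, 10.85, 11.84 and 11.95 on the untreated and 11.46, 8.83, 9.89 and 11.49 on the G-CSF endothelial arrays, with overlap. Replicate 2 was lowest in both groups for the list, and after G-CSF it was also the lowest for Gdf10, Bambi, Id4 and Grem1. Among the untreated arrays replicate 2 was lowest for Gdf10 and Bambi, but not for Id4, and it was the highest for Grem1. Of the 8 markers 1, Alpl, fell by the test (log2 -1.59 ± 0.33, adjusted p = 0.0316), and the endothelial list read 12.57 to 13.09 untreated and 12.60 to 13.02 after G-CSF, with 0 of 12 called. Lists of other cell types moved as well. The erythroid list read 9.51 to 10.94 untreated and 6.64 to 9.62 after G-CSF, with 2 of 4 genes called lower. The adipogenic reticular stroma list read 10.71 to 11.12 and 10.08 to 10.68, without overlap and with 1 of 9 called lower. With no gene called, the B lineage list read 7.63 to 9.69 and 6.02 to 7.94, the skeletal muscle list 7.77 to 13.48 and 6.98 to 8.45, and the neutrophil list 12.09 to 12.97 and 12.88 to 13.76. The part of RNA of any of these cell types in the 4 changes was not tested.

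Further genes with G-CSF arrays below all untreated arrays, none of them called here, were Smad6 (from 1681, 1644, 1889.5 and 1118 to 768, 702, 631 and 785, log2 -1.10 ± 0.26, adjusted p = 0.0504), Ltbp2 (log2 -0.97 ± 0.24, adjusted p = 0.0574), Bmpr1a (log2 -1.04 ± 0.29, adjusted p = 0.0836), Tgfb3 (log2 -0.71 ± 0.27, adjusted p = 0.228), Fst (log2 -0.56 ± 0.22, adjusted p = 0.25) and Fstl1 (log2 -0.43 ± 0.21, adjusted p = 0.392). The 2 genes with all G-CSF arrays above were Inhbb (log2 0.72 ± 0.34, adjusted p = 0.382) and Acvr1b (log2 0.73 ± 0.25, adjusted p = 0.165). Inhbb read 1239, 1299, 1548 and 1517 untreated and 1650.0, 1962, 5553 and 1582 after G-CSF, with replicate 3 well above the rest. Its second, dimmer probe set showed a change of -0.23. Further Bmpr1a probe sets above the filter changed by -1.04, -0.80, -0.37 and 0.21. Of the 9 genes called higher in untreated endothelial cells, Bambi fell, Inhbb did not overlap, and the other 7, among them Acvrl1 (0.21 ± 0.28), Eng (-0.35 ± 0.26) and Id1 (0.17 ± 0.29), had overlapping groups.

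Replicate numbers were taken to pair the arrays within each sort. With the number as a block 8 genes fell: Bambi (adjusted p = 0.00382), Id4 (0.00435), Gdf10 (0.00758), Smad6 (0.0107), Smad3 (0.0139), Ltbp2 (0.0286), Bmp1 (0.0375) and Bmpr1a (0.0459), while Grem1 missed (0.055). Calls over all genes rose from 215 to 660 with the block. Leaving out 1 array at a time left 0 calls without untreated replicate 1, 3 or 4, 1 without G-CSF replicate 2 or 3, 2 without G-CSF replicate 4 and 3 without untreated replicate 2 or G-CSF replicate 1, so none of the 4 calls held on every subset. Centring on the median moved the median of all genes to 0.13 and kept Gdf10 alone (-2.01, adjusted p = 0.0453), and quantile normalisation kept Gdf10 and Bambi.

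Whether G-CSF acted differently in the sorts was tested as the difference of its changes, osteoblast minus endothelial. Limma called 0 of the 48 genes and 0 of all 12830 genes (0%), with 7 of the 48 and 581 of all (4.53%) at an unadjusted p under 0.05. Ltbp2 had the smallest p, with a change of 0.49 ± 0.28 in osteoblasts and -0.97 ± 0.24 in endothelial cells, a difference of 1.45 ± 0.37 (adjusted p = 0.552). Bmp6 followed at -1.42 ± 0.40, and then Bmpr1a at 1.22 ± 0.44. No gene of the superfamily was therefore shown to respond differently in osteoblasts and endothelial cells.

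Other genes of the pathway, outside the naming rule, were read from 6 lists. Their counts stand beside 27.4% of all genes called between the untreated sorts (14.1% higher and 13.3% lower in osteoblasts), 33% between the G-CSF sorts (17.9% and 15.1%) and 1.68% after G-CSF in endothelial cells (0.483% higher and 1.19% lower). Of 16 tested antagonists and modulators, 5 were higher and 3 lower in untreated osteoblasts (50%), with a median log2 difference of 0.74 against -0.01 for all genes. Bmper, which encodes a BMP-binding protein (log2 1.75 ± 0.36, adjusted p = 0.00222), and the secreted protease gene Htra1 (log2 2.09 ± 0.31, adjusted p = 0.000151) were higher. Chrdl2, a chordin-like antagonist (log2 -2.93 ± 0.38, adjusted p = 5.05e-05), and Crim1, a membrane protein that binds BMPs (log2 -1.84 ± 0.27, adjusted p = 0.000158), were lower. After G-CSF 9 were higher and 3 lower (75%). In endothelial cells 3 (18.8%) fell after G-CSF, namely Chrdl1 (log2 -2.17 ± 0.37, adjusted p = 0.015), Nbl1, a BMP antagonist of the DAN family (log2 -1.60 ± 0.32, adjusted p = 0.0282), and Bgn, the matrix proteoglycan biglycan (log2 -1.47 ± 0.32, adjusted p = 0.0373).

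Of 14 tested genes for latency, matrix storage and activation of TGF-beta, 6 were higher and 1 lower in untreated osteoblasts (50%, median 1.37), and 8 and 0 after G-CSF (57.1%). Aspn and Fmod, small leucine-rich proteoglycans that bind TGF-beta, showed log2 4.76 ± 0.54, adjusted p = 1.5e-05 and log2 3.00 ± 0.48, adjusted p = 0.000316. Mmp14, a membrane protease, showed log2 2.19 ± 0.40, adjusted p = 0.000842, and Nrros, which holds latent TGF-beta on myeloid cells, was lower (log2 -2.39 ± 0.62, adjusted p = 0.0102). Thbs1, an activator of latent TGF-beta, fell in endothelial cells after G-CSF (log2 -1.90 ± 0.42, adjusted p = 0.0396), 1 of the 14 (7.14%).

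Of 24 tested intracellular regulators of Smads, 7 were higher and 2 lower in untreated osteoblasts (37.5%, median 0.18), 6 and 3 after G-CSF (37.5%), and none was called with G-CSF in either sort. The 37.5% after G-CSF is near the 33% of all genes. Those with the largest differences were Pmepa1 (log2 1.32 ± 0.25, adjusted p = 0.00109), which sequesters Smads, Zfyve16 (log2 1.18 ± 0.34, adjusted p = 0.0176), Wwp1 (log2 1.16 ± 0.24, adjusted p = 0.00237), a ubiquitin ligase, and Trim33 (log2 1.03 ± 0.18, adjusted p = 0.000682).

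Of 18 tested genes known to be induced by TGF-beta, 5 were higher and 1 lower in untreated osteoblasts (33.3%, near the 27.4% of all genes, median 0.38), and 10 and 1 after G-CSF (61.1%). Periostin (log2 4.79 ± 0.60, adjusted p = 3.66e-05), Snai2 (log2 3.14 ± 0.25, adjusted p = 4.61e-07), a transcriptional repressor, the matrix gene Tnc (log2 2.86 ± 0.54, adjusted p = 0.00103) and Col3a1 (log2 1.85 ± 0.37, adjusted p = 0.00161) led, and the lower one, named after its value was seen, was Timp3, a protease inhibitor (log2 -1.15 ± 0.15, adjusted p = 5.63e-05). In endothelial cells Col3a1, a fibrillar collagen, fell after G-CSF (log2 -1.67 ± 0.34, adjusted p = 0.0294) and Tgfbi, a matrix protein, rose (log2 1.19 ± 0.28, adjusted p = 0.0442), 11.1% of the 18. Of 13 tested BMP-induced genes, 4 were higher and 1 lower in untreated osteoblasts (38.5%, median 0.16), and 6 and 2 after G-CSF (61.5%). In endothelial cells 1 of the 13, Alpl, fell after G-CSF (7.69%). The largest excesses were those of Prrx2 (log2 2.86 ± 0.57, adjusted p = 0.00163) and Dlx5 (log2 2.48 ± 0.48, adjusted p = 0.00133), homeobox factors of mesenchyme and bone, and of Alpl, the mineralising enzyme (log2 2.26 ± 0.36, adjusted p = 0.000266), and the lower one was Gata2, a blood and endothelial factor (log2 -2.75 ± 0.31, adjusted p = 1.43e-05). Alpl, Ibsp and Sp7 of this list and Col1a1 and Col1a2 of the TGF-beta list also stand among the osteoblast markers, so these counts are not separate from that marker list. Of 5 other ligands and receptors tested, Inha, the inhibin alpha subunit, was higher (log2 1.55 ± 0.26, adjusted p = 0.000485) and Nodal lower (log2 -1.72 ± 0.37, adjusted p = 0.00284), 40% of the 5. In osteoblasts 0 genes of the 6 lists were called after G-CSF.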

How the data were processed

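RNA of 2 sorted cell populations was read on 14 Affymetrix arrays, 1 per sample. The authors deposited 1 linear intensity per probe set and array, made with Affymetrix Expression Console 1.1 per the submitters' processing notes; how probes were summarised is not given in the sources used here. On every array the mean after 2% trimming was 500, so the deposited intensities were already scaled and were used as they are. Per the labels' protocols, cells were sorted into Trizol.

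Of 45101 probe sets, 64 controls, 932 with several symbols and 9160 with none were left out of the tests. Values became log2(intensity + 16), and folds are on that scale, which understates the change of dim genes. Probe sets with 1 symbol and a mean log2 under 6.01 were dropped as dim, and the brightest probe set of each symbol was kept, which left 12830 genes. Limma 3.58.1 (R 4.3.3) fitted the means of the 4 groups, using all 14 arrays and letting variances follow a trend in intensity. P-values are 2-sided and adjusted by Benjamini and Hochberg over all 12830 genes. Errors of log2 differences are SE. Each comparison between groups was tried on simulated data, but the difference of the G-CSF changes was not. In each trial 100 of the 12830 genes were changed by each size. That is far fewer than were called between the real sorts, so the shares below do not measure how often those comparisons find a change. Of simulated log2 changes of 1, 32% (G-CSF in osteoblasts) to 39% (untreated sorts) were called in the right direction. Of those of 2, 75% to 89% were, so a gene that is not called may still have changed. Groups came from the labels.

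The genes and lists were chosen with earlier results of these data known. Any of the 59 genes could be named, with per-array values for those called at a log2 difference of at least 1 and for key genes. In the pathway lists up to 4 called genes with the largest differences were named, or the 2 largest where none was called. Promoters are from RefSeq, GRCm38.p6.

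Replicate numbers come from the titles. Same-numbered untreated and G-CSF arrays deviated together from their group means. Their correlations were 0.235, 0.3 and 0.336 for the osteoblast numbers, and 0.251, 0.4, 0.291 and 0.11 for the endothelial ones. No untreated array correlated better with a G-CSF array of another number than with that of its own. The reverse, starting from each G-CSF array, was not examined. The numbers were taken to pair the arrays within a sort. Between the sorts they correlated by -0.013 to 0.282. Alternatives covered the pseudocount, scaling, filter, probe set choice, model, replicate block and each array left out.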

Additional observations from a re-analysis of the deposited data

Results flagged for a closer look

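In 8 of 96 groups of 4 endothelial arrays, over the 48 tested genes, a single array stood apart from the other 3 by Dixon's criterion on log2 values, where chance sets apart about 1 in 20 groups. Endothelial G-CSF replicate 3 was the highest for Smad5 (4215.3, others 2159.4 to 2265.7), Tgfbr2 (12619.1, others 6441.5 to 6916.6) and Tgfbr3 (8836.4, others 5796.1 to 5861.5) and the lowest for Bmp5 (242.4, others 454 to 513.1). Endothelial G-CSF replicate 2 was the lowest for Inhba (54, others 157.7 to 186.4). Untreated endothelial replicate 2 was the lowest for Bmp7 (22.9, others 255.8 to 327.1) and Bmp8a (38.9, others 260.6 to 325.5). Untreated endothelial replicate 3 was the highest for Tgfbr1 (1844.4, others 1279.4 to 1343.2).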

How the results depend on the processing

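The counts between the sorts stayed within 1.5 times the main one under every alternative run, at 21 to 28 without 1 array (untreated) and 26 to 31 (G-CSF), and 17 of the 24 and 22 of the 30 genes were called under all of them. No gene named for a call changed direction. The count of endothelial falls after G-CSF was less stable: 4 as reported, 2 after quantile normalisation, 1 after centring on the median, 8 with the replicate block, 10 with array weights, and 0 to 3 without 1 array, while the calls over all genes were 215, 105, 152, 660, 1058 and 29 to 390. In osteoblasts the count of 0 became 1 with array weights and 1 with both untreated arrays that stood apart left out, and was 0 to 1 without 1 array, with 1 only without untreated replicate 2, and the calls over all genes were 26, 187, 428 and 4 to 479. The difference of the G-CSF changes gave 0 under each. The replicate block changed no other call after G-CSF, and between the sorts it gave 27 and 31 genes, which include all 24 and all 30. The alternatives on printed decimals were chosen after seeing the data. The cause of these shifts was not tested. Precision is limited by the number of arrays, and 11 dim genes were left out of the main tests.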
